A study of Mus musculus and Mus musculus musculus x Mus musculus castaneus with 8 samples.

Results

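ATAC-seq, in which a transposase inserts sequencing adaptors into accessible DNA, was used to map open chromatin in mouse embryonic fibroblasts (MEFs) before and after their nuclei were placed in Xenopus laevis oocytes. The sites described here were chosen by peak calls made before and after transfer: they are peaks of the donor MEF list that overlapped no peak of C2C12 myoblasts from 50000 cells but overlapped, by at least 1 bp, a peak after nuclear transfer (NT) in control oocytes or in oocytes that overexpressed Toca1, a factor that enhances actin polymerization. Of 39592 donor MEF peaks, 14030 overlapped no C2C12 peak and are called fibroblast-only, and 800 of these were kept after NT. The kept fibroblast-only sites thus made up 2.02% of all donor peaks and 9.04% of the 8847 donor peaks found in either NT list.

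Donor MEFs were from embryos of a cross of Mus musculus musculus with Mus musculus castaneus and had been permeabilized for transfer. The donor list came from 1 library of 3000 cells, the control NT list from 2 libraries of 3000 cells at 48 h after NT, with 10 oocytes pooled in each experiment, and the Toca1 list from 1 library of 3000 cells at 48 h. C2C12, an established myoblast line of the C3h strain, gave 1 list from 2 libraries of 50000 cells and 1 list from 2 libraries of 1000 cells. Cell type, strain, cells per library and number of libraries therefore cannot be told apart in the term fibroblast-only. Toca1 and its single library cannot be told apart either. The lists give only where peaks were called. Neither depth nor peak height is known, and with 1 list for all libraries of a condition the spread between replicates cannot be seen and no test across samples could be made, so the 95% Wilson intervals given below cover counting error over peaks only. Fibroblast marker genes were not checked, since gene positions in the coordinates of the lists, which are in the mm9 build by the submitters' processing notes, were not used here.

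Open sites that one somatic cell type has and another lacks are often enhancers, which are bound by the transcription factors of that cell type, whereas sites open in many cell types are often promoters. An oocyte exposes a transplanted nucleus to its own stock of factors and dilutes those that came with the nucleus. A donor site that is still accessible afterwards is therefore a candidate for somatic memory, the persistence of the former cell's chromatin pattern. In this system the transplanted nuclei neither divide nor replicate their DNA.

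The 800 kept sites were unevenly divided between the NT lists. After control NT, 282 fibroblast-only donor peaks were present (2.01%), and with Toca1 630 were (4.49%). In all, 112 sites were in both lists (0.798%), 170 were in the control NT list only and 518 were in the Toca1 list only. The share in either list was 5.70% (interval 5.33% to 6.10%). Over all donor peaks the same shares were 9.73% in the control NT list, 19.7% in the Toca1 list, 22.3% in either and 7.08% in both, and over the 25562 donor peaks shared with C2C12 they were 14.0%, 28.0%, 31.5% and 10.5%. These shares restate the rule by which the sites were chosen and are given as a description. The Toca1 list is also the larger, with 16412 peaks of median width 467 bp against 8257 peaks of 291 bp, and how far that accounts for the larger number of kept sites was not tested. With the Toca1 list reduced to its 8257 widest peaks and the control NT list unchanged, 571 sites were kept in either list, against 800. The reduction matched the number of peaks and not their widths.

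The widest kept site was found in each NT list. It lies on chromosome 7 from 59260908 to 59261962 (1055 bp), and within it the control NT peak ran from 59260935 to 59261825 (891 bp) and the Toca1 peak from 59261003 to 59261798 (796 bp). The centres of the NT peaks lay 55 bp and 34.5 bp from the donor centre, and the nearest C2C12 peak from 50000 cells was 10022 bp away. Other sites in both lists were open over a different stretch after NT. On chromosome 11 the donor peak ran from 101121673 to 101122136, the control NT peak from 101121233 to 101122096 and the Toca1 peak from 101121284 to 101122055, so that both NT peaks reached beyond the start of the donor peak and their centres were displaced by 240 and 235 bp. On chromosome 9 the donor peak from 62828597 to 62829124 was met by a control NT peak of 769 bp, from 62828178 to 62828946, and a Toca1 peak of 1228 bp, from 62827772 to 62828999. This last site lay 132647 bp from the nearest C2C12 peak. Wide control NT peaks in both-list sites also included 837 bp on chromosome 19 and 819 bp on chromosome 9. Their donor peaks ran from 3388600 to 3388968 and from 65194598 to 65194784, and lay 107 and 593 bp from a C2C12 peak. At these sites on chromosomes 19 and 9, an NT peak also overlapped a C2C12 peak or a donor peak shared with C2C12.

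**Figure D1:**
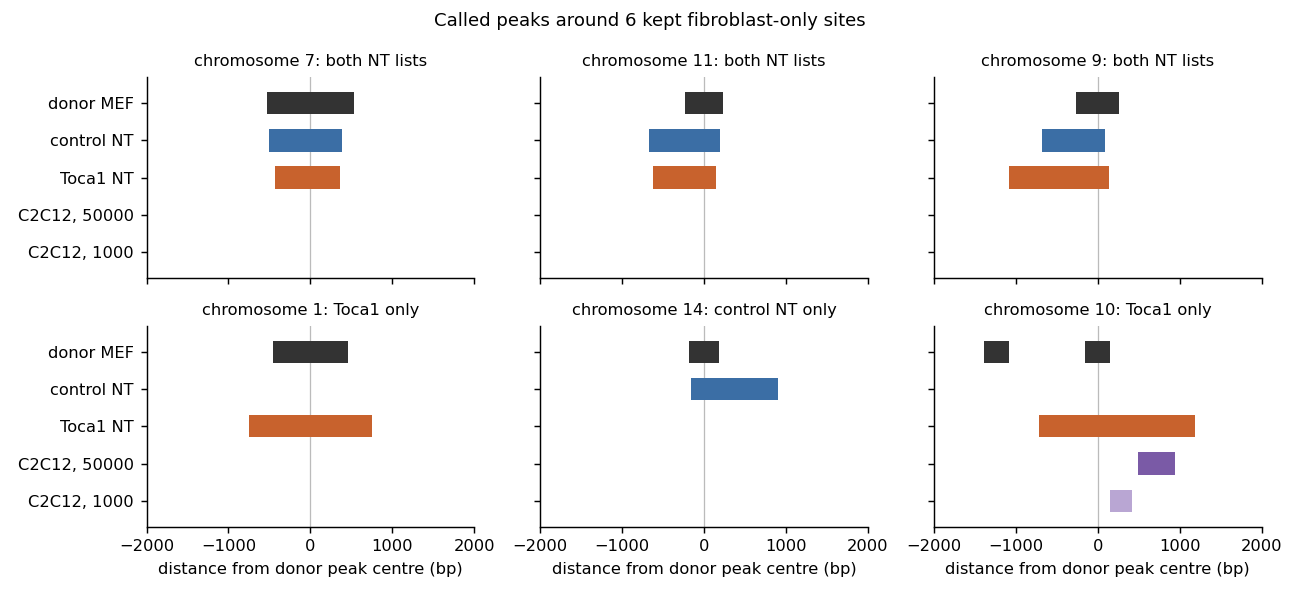
Called peaks around 6 kept fibroblast-only sites, with the distance from the donor peak centre in bp on the horizontal axis and 1 row for each of the 5 lists. The chromosome 7 site was covered by an 891 bp control NT peak and a 796 bp Toca1 peak without a C2C12 peak in view, whereas at the chromosome 10 site a 1909 bp Toca1 peak also ran over peaks of both C2C12 lists.

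Sites found in 1 NT list only ranged from broad, centred peaks to peaks that met the donor site at an edge. With Toca1 only, a donor peak of 912 bp on chromosome 1, from 38683689 to 38684600, lay wholly inside a peak from 38683395 to 38684891, with centres 1.5 bp apart and 168551 bp from the nearest C2C12 peak. A donor peak on chromosome 3, from 58809553 to 58809886, shared 168 bp with a Toca1 peak of 1551 bp that began at 58809719, and the centres were 774 bp apart. After control NT only, the widest peak was 1062 bp, on chromosome 14 from 64055124 to 64056185, and it covered 343 bp of the donor peak from 64055103 to 64055466. The next widest were 890 bp on chromosome 15 and 798 bp on chromosome 11, at donor peaks from 40486117 and from 74661714. Wide peaks with Toca1 only were also 1909 bp on chromosome 10, 1730 bp on chromosome 19 and 1508 bp on chromosome 11, at the donor peak from 75840390. The peaks on chromosomes 10, 11, 15 and 19 also overlapped a C2C12 peak or a donor peak shared with C2C12. Of the 5 widest donor peaks among the kept sites, 4 were found with Toca1 only. These 4 were on chromosome 8 from 72345821 to 72346821 (1001 bp), on chromosome 13 from 97777467 to 97778446 (980 bp), on chromosome 19 from 5567509 to 5568474 (966 bp) and on chromosome 7 from 29996147 to 29997102 (956 bp). The Toca1 peaks at them were 666, 304, 1242 and 191 bp wide, so a broad donor site did not always carry a broad peak after NT.

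The donor peaks at kept sites were 376 bp wide at the median, with the middle part of the distribution between 286 and 492 bp (lower and upper quartile). Fibroblast-only peaks absent after NT had a median of 336 bp, and donor peaks shared with C2C12 that were kept in either NT list had a median of 533 bp. The control NT peaks on kept sites were narrower than the donor peaks, with a median of 283 bp and a median ratio to the donor width of 0.779. The Toca1 peaks on them were wider, with a median of 538 bp and a ratio of 1.34. In the 112 sites of both lists the Toca1 peak was the wider one in 99, and in 2304 of the 2693 shared sites of both lists it was as well. The wider Toca1 peaks were thus found on the shared sites too.

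**Figure D2:**
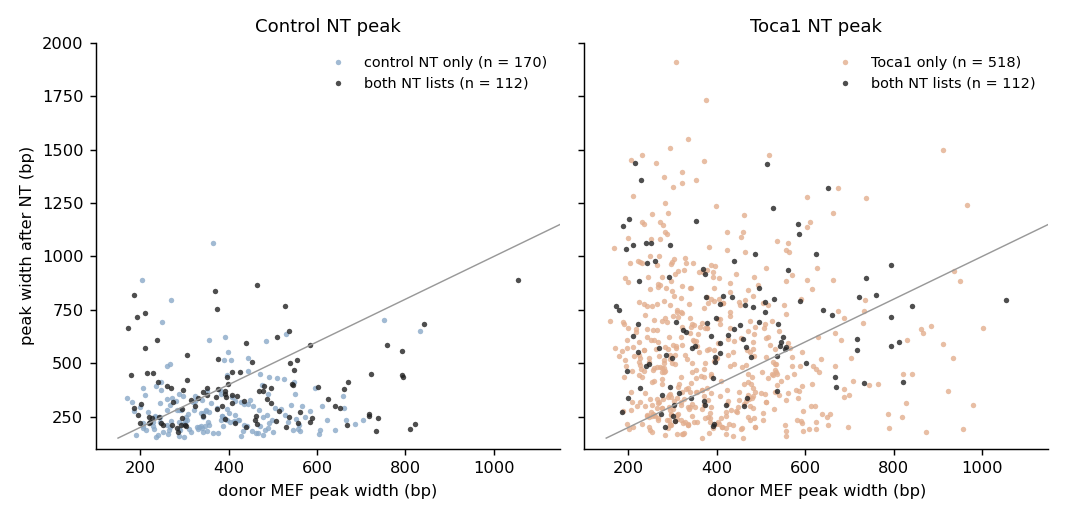
Width of the peak after NT against width of the donor MEF peak, both in bp, for kept fibroblast-only sites, with control NT peaks on the left, Toca1 peaks on the right and a grey line where the widths are equal. The control NT peaks mostly lie below the line (median ratio 0.779) and the Toca1 peaks mostly above it (median ratio 1.34).

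Whether the same bases stayed open was examined from the overlap of the peaks. A control NT peak covered a median of 59.7% of the donor peak at kept sites and included its centre at 200 of 282 sites (70.9%, interval 65.4% to 75.9%). At shared sites it covered a median of 61.9% and included the centre in 80.3% (interval 79.0% to 81.6%). A Toca1 peak covered a median of 79.7% and included the centre at 520 of 630 sites (82.5%, interval 79.4% to 85.3%), against 85.2% and 89.0% (interval 88.2% to 89.7%) at shared sites. Over all kept sites the NT peak thus left out the donor centre more often than at shared sites, where both the donor and the NT peaks were wider, with control NT peaks of 390 bp and Toca1 peaks of 689 bp at the median. At the 112 sites of both NT lists the control NT peak included the centre in 80.4% (interval 72% to 86.7%) and the Toca1 peak in 91.1% (interval 84.3% to 95.1%). The shares of shared sites were not computed for those in both NT lists alone, so the 112 sites have no matched comparison. The centres were a median of 94.0 bp apart with the control NT list and 128 bp apart with the Toca1 list, close to the 90.0 and 142 bp of shared sites. At 109 of the 112 sites in both lists the 3 peaks had bases in common, with a median of 228 bp.

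The share of fibroblast-only donor peaks that were kept was highest at the widest donor peaks in each NT list and did not increase steadily with width below them. When fibroblast-only peaks were divided into 4 classes of equal size by width, control NT kept 1.78%, 1.23%, 2.1% and 2.92% from the narrowest to the widest class, and the Toca1 list kept 3.73%, 3.58%, 4.15% and 6.51%. Shared donor peaks in the same width limits were kept more often in each class. From the narrowest to the widest class their share went from 5.11% to 20.4% in the control NT list and from 13.9% to 38.2% in the Toca1 list. The narrowest class of shared peaks, of 150 to 272 bp, was thus kept more often in each NT list than the widest class of fibroblast-only peaks, which began at 443 bp.

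**Figure D3:**
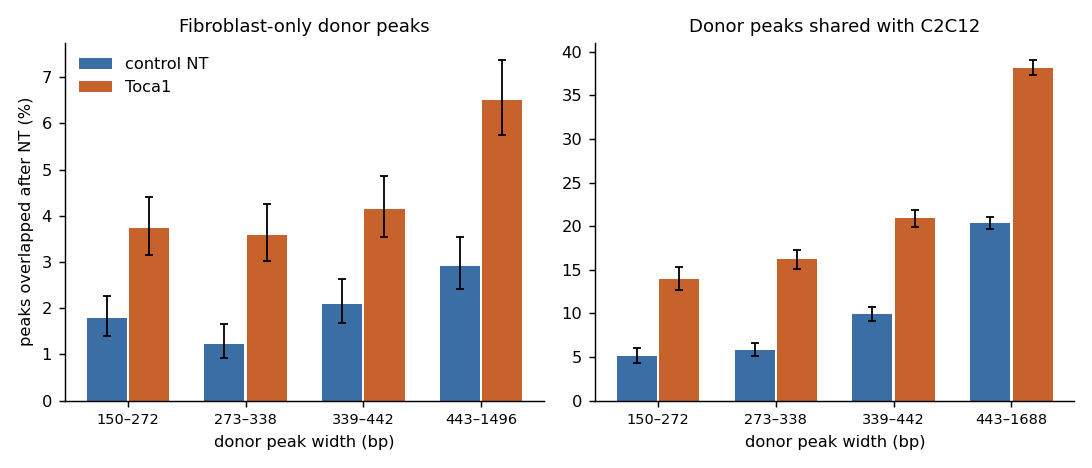
Percentage of donor MEF peaks overlapped by a peak after NT in 4 classes of donor peak width in bp, for fibroblast-only peaks on the left and peaks shared with C2C12 on the right, with 95% Wilson intervals and a different vertical scale in each panel. In the widest class 2.92% of fibroblast-only peaks were in the control NT list and 6.51% in the Toca1 list, against 20.4% and 38.2% of shared peaks.

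How the NT lists overlap was described next. Both lists entered the rule that chose the sites, so the shares that follow describe these lists and are no independent look at the sites. Of the 282 sites kept after control NT, 112 had a Toca1 peak (39.7%, interval 34.2% to 45.5%), and of the 13748 fibroblast-only peaks that control NT did not keep, 518 had one (3.77%, interval 3.46% to 4.10%). Among shared donor peaks the corresponding shares were 75.4% (interval 74.0% to 76.8%) and 20.4% (interval 19.8% to 20.9%). The lower share of fibroblast-only sites was seen at each width of the control NT peak. For control NT peaks under 250 bp the Toca1 list held 31 of 111 fibroblast-only sites (27.9%) and 58.3% of shared sites. For those of at least 400 bp it held 39 of 63 (61.9%, interval 49.6% to 72.9%) and 84.0% (interval 82.2% to 85.6%). In the other direction, the control NT list held 91 of the 421 fibroblast-only sites whose Toca1 peak was at least 400 bp wide (21.6%) and 40.4% of such shared sites. All of these sites are in the same donor list. Treatment and library differ between the NT lists, and their depth is not known.

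**Figure D4:**
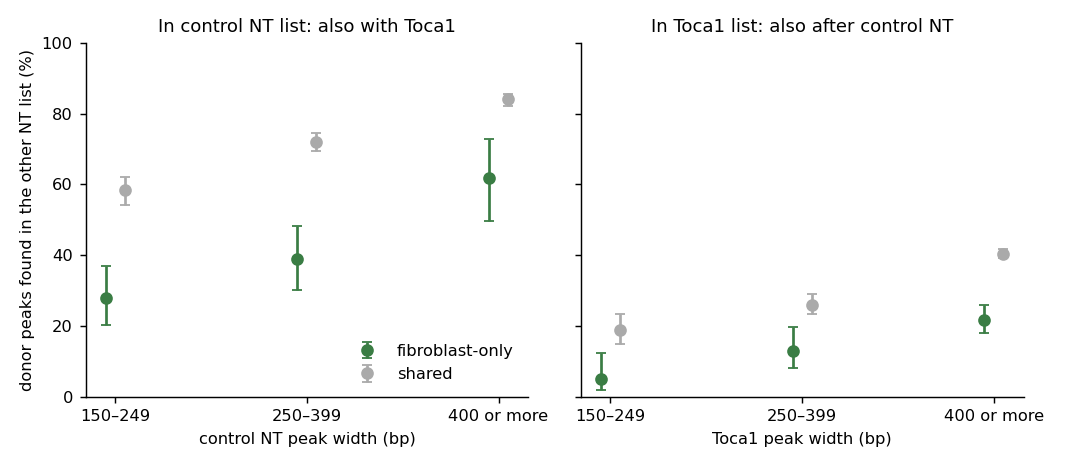
Percentage of donor sites kept in 1 NT list that were also in the other, by the width in bp of the NT peak in the first list, with 95% Wilson intervals. Fibroblast-only sites lie below shared sites in all 3 width classes on both sides, for example at 61.9% and 84.0% for control NT peaks of at least 400 bp.

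How far the kept sites are from myoblast open chromatin was examined next. Their median distance to the nearest C2C12 peak from 50000 cells was 10488 bp, and 541 of the 800 (67.6%) were at least 5000 bp away. A group of 110 (13.8%, interval 11.5% to 16.3%) lay less than 500 bp from a C2C12 peak, against 6.10% (interval 5.70% to 6.52%) of the fibroblast-only peaks absent after NT. Seen from all fibroblast-only peaks, 12% (interval 10% to 14.3%) of those less than 500 bp from a C2C12 peak were kept, 4.97% of those from 500 bp to under 5000 bp away and 5.35% of those farther away. With Toca1 the share was 10.5% (interval 8.65% to 12.6%) for those nearest to a C2C12 peak and 4.12% (interval 3.75% to 4.53%) for those at least 5000 bp away. In the control NT list it was 3.38% (interval 2.39% to 4.76%) and 1.98% (interval 1.72% to 2.27%). Whether the near and far shares differed more in one NT list than in the other was not tested.

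At many of these near sites the NT peak itself reached the C2C12 peak. Of the 110, 65 (59.1%, interval 49.7% to 67.8%) had an NT peak that also overlapped a C2C12 peak, and over all 800 kept sites 72 did (9%). At 47 sites the NT peak also overlapped a neighbouring donor peak that is shared with C2C12. An example is the site on chromosome 19 from 46120296 to 46120670, 140 bp from a C2C12 peak, where 1 Toca1 peak of 1730 bp ran from 46118956 to 46120685. At such sites the peak after NT cannot be assigned to the fibroblast-only donor peak alone. In 698 sites (87.2%, interval 84.8% to 89.4%) neither the donor peak nor its NT peak overlapped a peak of either C2C12 list or a shared donor peak, and 94 of these were in both NT lists.

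The C2C12 list from 1000 cells was not used to choose the sites and gives a separate but limited look at whether they are open in myoblasts. It held 34771 peaks of median width 258 bp but overlapped only 8.44% of the donor peaks shared with the larger C2C12 list. A site without a 1000-cell peak is therefore not shown to be closed in myoblasts. It overlapped 28 of the 800 kept sites (3.50%, interval 2.43% to 5.01%) and 200 of the 13230 fibroblast-only peaks absent after NT (1.51%, interval 1.32% to 1.73%), with 1.63% over all fibroblast-only peaks, 8.44% over shared donor peaks and 6.03% over all donor peaks. The kept sites at least 5000 bp from any C2C12 peak of the larger list had 18 of 541 (3.33%, interval 2.11% to 5.20%), and the absent ones at that distance 1.43% (interval 1.21% to 1.69%). Within width classes the intervals were wide, with 1.74% of kept and 1.49% of absent peaks in the narrowest class and 4.27% (interval 2.46% to 7.31%) and 1.78% (interval 1.37% to 2.30%) in the widest. How many overlaps with the 1000-cell list would arise by chance alone was not computed. For these 28 sites the name fibroblast-only goes against the second C2C12 list. The widest of them were the site on chromosome 19 from 5567509 to 5568474, a site on chromosome 2 from 178149123 to 178149774 that was in both NT lists, and a site on chromosome 9 from 57613598 to 57614188.

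Every chromosome but Y, which the lists do not cover, held kept sites. Chromosomes 2 and 11 held the most, with 74 each, and chromosome X the fewest, with 7. As a share of the fibroblast-only peaks of a chromosome, 9.33% were kept on chromosome 11 (interval 7.50% to 11.6%) and 8.89% on chromosome 17 (interval 6.79% to 11.6%). The lowest shares were 2.25% on chromosome 12 (8 of 356, interval 1.14% to 4.37%), 2.38% on chromosome X (7 of 294, interval 1.16% to 4.83%) and 2.58% on chromosome 15 (16 of 619, interval 1.60% to 4.16%). All 8 sites of chromosome 12 were in the Toca1 list and 1 was also in the control NT list. The share was larger with Toca1 than after control NT on each of the 20 chromosomes. Shared donor peaks were kept most often on chromosome 11 too, at 38.4%, and on chromosomes 12 and X at 28.2% and 25.7%.

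**Figure D5:**
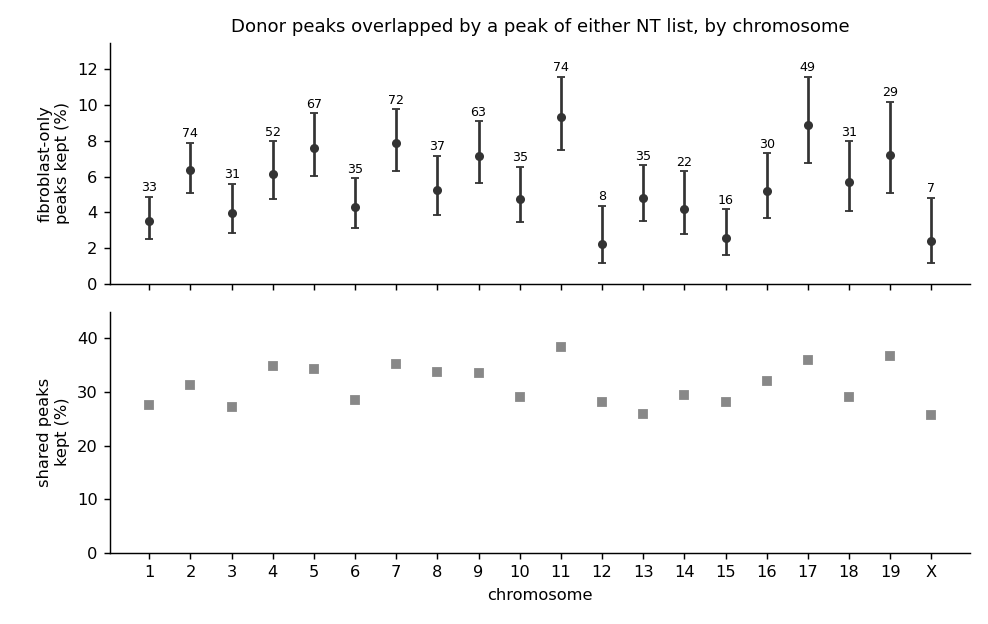
Percentage of fibroblast-only donor peaks (top, with 95% Wilson intervals and the number kept above each) and of donor peaks shared with C2C12 (bottom) that were overlapped by a peak of either NT list, by chromosome. Chromosome 11 is highest in both panels, at 9.33% and 38.4%, and chromosomes 12 and X, at 2.25% and 2.38%, are lowest in the upper one.

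The kept sites were mostly scattered, though nearer to each other than other donor peaks were to them. The median distance to the next kept site was 419413 bp. It was 972736 bp from absent fibroblast-only peaks to a kept site and 689792 bp from kept shared donor peaks. Of the 800, 116 (14.5%, interval 12.2% to 17.1%) had another kept site within 50000 bp, whereas 6.46% (interval 6.05% to 6.89%) of the absent fibroblast-only peaks lay that close to one. The median distance of kept sites to a shared donor peak kept after NT was 54768 bp, against 82547 bp for absent peaks. Donor peaks were somewhat denser around them as well, since 48.5% of kept and 53.7% of absent sites had no other donor peak within 10 kb, and the part of that density in these distances was not tested. Within 5000 bp, 29 kept sites (3.62%) had another kept site, against 0.695% of absent peaks. Some neighbours counted as kept through the same NT peak. On chromosome 1, the sites from 133859345 and from 133859766 lay under a single Toca1 peak of 1112 bp. The part of such pairs in these distances was not tested either.

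Only 4 windows of at most 100 kb held 3 kept sites, counted where each site lay within 50000 bp of the next. On chromosome 4, from 88927939 to 88957134, 3 of the 5 fibroblast-only donor peaks were kept, all of them with Toca1, and the middle one, from 88940361 to 88940855, also after control NT. This window held no donor peak shared with C2C12. On chromosome 18, from 36355600 to 36357501, all 3 donor peaks were fibroblast-only, lay within 1902 bp of each other and had Toca1 peaks of 463, 261 and 528 bp, and none was in the control NT list. On chromosome 7, from 19478999 to 19510828, all 3 fibroblast-only donor peaks were kept, 1 after control NT and 2 with Toca1, beside 1 shared donor peak that was kept too. On chromosome 2, from 35477358 to 35517280, 3 of 4 fibroblast-only peaks were kept, and 2 of them lay under a single Toca1 peak of 776 bp.

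Genes could be set beside some of the sites because the study names the gene at peaks that were new after NT, in the same coordinates. A kept site was placed inside a gene where such peaks in that gene lie on both sides of it. This held for 2 sites, both found with Toca1 only. One, on chromosome 10 from 85041770 to 85042216, lies in Btbd11, and its Toca1 peak was 295 bp wide. The other, on chromosome 16 from 34096019 to 34096242, lies in Kalrn and was wholly covered by a Toca1 peak of 598 bp. They lay 18466 bp and 8988 bp from the nearest C2C12 peak.

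Some other kept sites lay within 50 kb of a new peak with a gene name, and the 20 nearest pairs among the 2634 such peaks used here, which are only part of the study’s list, serve to say where sites are, not which gene they act on. By their definition the new peaks lie at least 5000 bp from any donor peak, which sets a floor to every distance given here. The nearest was on chromosome 4 from 43521481 to 43521832, 5480 bp from a new peak in Tpm2, which encodes a tropomyosin of the actin cytoskeleton, and it was found after control NT only, with 12 bp of overlap. Among sites in both NT lists were those on chromosome 11 from 94937934 to 94938557, 8518 bp from a new peak in Itga3, an integrin subunit, on chromosome 17 from 27844931 to 27845228, 8628 bp from one in Spdef, an ETS family transcription factor, and on chromosome 7 from 28589643 to 28590120, 7959 bp from one in Zfp626. The site near Spdef was covered whole by a control NT peak of 373 bp whose centre was 1.5 bp from the donor centre. A pair of sites on chromosome 11, from 95573865 to 95574474 and from 95574825 to 95575054, lay 6515 and 7475 bp from a new peak in Zfp652os, and both lay under a single Toca1 peak of 1160 bp.

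Further sites of this group that were found after control NT only lay 7887 bp from a new peak in Syt7, a synaptotagmin, and 7517 bp from one closest to the start of Slc12a5, a potassium and chloride cotransporter. With Toca1 only, sites lay 9404 bp from a new peak in Kansl1, a subunit of a histone acetyltransferase complex, 9924 bp from one closest to the start of Cacna1h, a calcium channel subunit, and 10391 bp from one closest to the start of Degs1, a desaturase of sphingolipid synthesis. The site near Kansl1 lay 410 bp from a C2C12 peak and shared 131 bp with a Toca1 peak of 1435 bp, and it is among those whose NT peak cannot be assigned to the fibroblast-only donor peak alone.

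The rule has sharp limits, and sites on either side of them differed by a few bases. The smallest gaps to a C2C12 peak among kept sites were 3, 13 and 14 bp, on chromosome 18 from 53576715 and from 13105738 and on chromosome 17 from 28758691. Just outside were donor peaks kept after NT that shared 2, 6 and 6 bp with a C2C12 peak, on chromosome 4 from 116854715, chromosome 11 from 4018515 and chromosome 9 from 21602334. The smallest overlaps with an NT peak were 1 bp on chromosome 9 from 63687243, 2 bp on chromosome 18 from 32298213 and 2 bp on chromosome 2 from 73385359. Absent fibroblast-only peaks came as near as 1, 5 and 6 bp to an NT peak, on chromosome 15 from 81877925, chromosome 7 from 149644019 and chromosome 11 from 119251220.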

How the data were processed

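ATAC-seq peak lists of the 5 conditions were deposited by the authors, 1 list per condition, each holding the chromosome, start and end of peaks at a false discovery rate of 0.01, with positions in bp. Per the labels, Bowtie2 2.2.1, Picard and MACS2 2.1 and the build mm9 are named in the submitters' processing notes, without their roles. Whether libraries were pooled before peak calling is not given in the sources used here. Lists were assigned to conditions by name, and starts are given 1-based. Per the labels, the 1000-cell libraries skipped a purification step before amplification.

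An overlap was counted from 1 bp upward, in Python 3.11.15, numpy 2.4.6, pandas 2.3.3, scipy 1.17.1 and matplotlib 3.10.9. Where several NT peaks met a site, the one with the largest overlap was used. Among 39592 simulated donor peaks, 14809 were placed as kept sites, of which 14809 were recovered with 0 false calls. The simulated peaks overlapped or did not by construction, so this checks the counting of overlaps only and not the accuracy of the kept sites. Shares have 95% Wilson intervals. Peaks within a list are not replicates, and no p-value is given.

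The sites and lists were chosen with earlier results of these data known. Sites named are, by a rule set with the design, the widest in each class, those nearest to the limits of the choice, all windows with 3 or more sites, the widest that overlap a 1000-cell C2C12 peak, and those that the study's gene names for new peaks could place. Of the 20 nearest pairs, some are not described. Sequence content, motifs, start sites and the gene lists of the design were not analysed, because the gene table and promoters at hand are in GRCm38.p6, another build than that of the lists.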

Additional observations from a re-analysis of the deposited data

How the results depend on the processing

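Of 38 values recomputed under an alternative, 24 stayed within their interval, or within 1.5 times for the number of kept sites. With a reciprocal overlap of at least 50%, which also loosens the exclusion by C2C12 peaks, 1262 sites were kept (6.73% of fibroblast-only peaks), their median width was 424 bp, the median distance between donor and nearest NT centre was 67 bp against 113 bp, and 5.78% overlapped a 1000-cell C2C12 peak. With peaks within 500 bp counted as overlapping in every comparison, which also tightens the exclusion by C2C12 peaks, 6.91% were kept, the distance was 152 bp and the 1000-cell share 5.30%. When narrower peaks than 250 bp were left out of each list, 5.13% were kept, with a median width of 398 bp and a distance of 124 bp. Requiring both NT lists left 112 sites. Donor peaks at least 5000 bp from C2C12 peaks had a median width of 394 bp. With the Toca1 list limited to its 8257 widest peaks, an alternative chosen after seeing the data, 4.07% were kept in either NT list. Beyond what these settings impose by construction, the cause was not tested. Merging neighbours separated by at most 150 bp, or dropping chromosome X, moved none of the values run under them.

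No paired analysis was possible because each condition has 1 list for all its libraries, and for the same reason no library was left out in turn. The alternatives for start sites and sequence content were not run, for want of a genome in the build of the lists. Without read numbers, whether an absent peak is closed chromatin or too few reads is not known.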
